A study of Mus musculus with 2 samples.

Results

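A set of 35 genes of bone, cartilage and osteoclasts was followed in total RNA of mouse adrenal gland. It is 35 of the 55536 annotated genes. The members were listed by name, as genes other than collagens that are known for osteoblasts and osteocytes (16 genes), chondrocytes (11 genes) or osteoclasts (8 genes), and they were chosen by their ratios between the 2 libraries, which were known when the list was drawn up. Those ratios are therefore a description of the libraries and carry no test.

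The samples were adrenal glands of male B6CASTF1/J mice aged 10 days, first-generation hybrids of the C57BL/6J and CAST/EiJ strains, and 300 ng of RNA went into each of the 2 libraries, together with the synthetic ERCC control transcripts. Both libraries belong to a single group, so no treatment, genotype or age was compared, and the contrast is replicate 2 against replicate 1. The labels call them biological replicates, but give the animal of replicate 2 as number 4 in one field and number 3 in another. Replicate 1 is number 3 in both fields. The donor identifier is shared, and whether the libraries come from different animals was not settled here. With 1 library per replicate there is no p-value for any gene.

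Bone is laid down by osteoblasts, which secrete a matrix of collagen I and acidic proteins and load it with calcium phosphate. Osteoblasts buried in that matrix become osteocytes, which regulate phosphate and further bone formation. In most of the growing skeleton bone replaces a cartilage model, whose chondrocytes secrete a matrix of collagen II and aggrecan, enlarge, and are then invaded. Osteoclasts are large cells with many nuclei, formed by fusion of cells of the macrophage line, that dissolve mineral with acid and digest the matrix with proteases. None of these tissues is part of the adrenal gland, whose cortex makes steroid hormones and whose medulla makes catecholamines.

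The tables held 38984236 expected counts in replicate 2 and 36982665 in replicate 1. An expected count is a read count in which reads shared by several transcripts are divided among them, and TPM, in which each library sums to the same total, is a level per transcript length. The gland's own markers were high in both libraries: 12 cortex genes summed to 6727 TPM in replicate 2 and 7770 TPM in replicate 1, and 10 medulla genes to 1466 and 1736 TPM in the same order. None of these 22 genes was higher in replicate 2.

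All 35 members had more scaled counts in replicate 2 than in replicate 1, except Hapln1 when scaled to library totals or spike-ins, and 5 of them (Mepe, Matn1, Matn3, Snorc and Ucma) had no count in replicate 1. The ratio between libraries was called past 2-fold where the scaled counts differed by more than 2-fold and the mean was at least 10 counts. Of the 29 members with that many counts, 22 were more than 2-fold higher in replicate 2 and none was more than 2-fold lower. Among the 18192 annotated genes whose mean reached 10 counts, 6.77% were more than 2-fold higher in replicate 2 and 1.25% more than 2-fold lower, and among protein-coding genes 7.12% were higher. Since the members were listed with these ratios known, nothing is read from the gap between the shares. The median log2 ratio was 2.76 over the 35 members and 0.00 over all genes, and 2.32 over the members with counts of 0 read as 3 and the genes at or under 3 counts in both libraries read as equal.

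The second measure was the exact 95% interval of each ratio, which covers counting error only. It lay wholly above 2-fold for 20 members: 11 osteoblast and osteocyte genes, 5 chondrocyte genes and 4 osteoclast genes. Of the 21775 annotated genes with more than 3 counts in a library, the interval lay above 2-fold for 2.73% and below 0.5-fold for 0.266%. The members with few counts were Matn1 and Ucma, each with 2 counts in replicate 2 and 0 in replicate 1, for which no ratio is given.

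**Figure D1:**
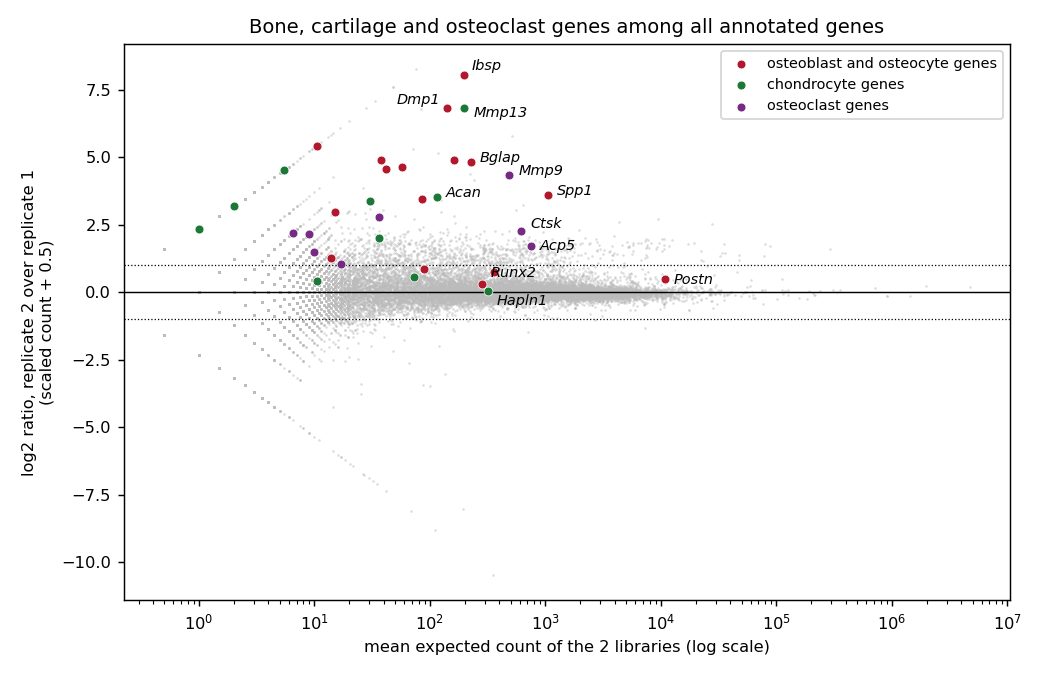
Log2 ratio of replicate 2 over replicate 1 (scaled counts plus 0.5) against the mean expected count, on a log axis, for all annotated genes with a count (grey) and the 35 members (coloured by lineage). Dotted lines mark 2-fold; Ibsp, Dmp1 and Mmp13 stand between 6.81 and 8.04 on the log2 scale, and Hapln1, Runx2 and Postn lie between 0.05 and 0.49.

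In levels per transcript length, 18 members reached 1 TPM in replicate 2 and 8 did in replicate 1, and these 8 did in both. The order of levels in replicate 2 began with Postn at 119.84 TPM, Spp1 at 40.47 TPM, Bglap at 35.12 TPM, Acp5 at 24.67 TPM, Ctsk at 19.56 TPM and Mmp9 at 8.12 TPM. In replicate 1 it began with Postn at 85.62 TPM, Acp5 at 7.86 TPM, Alpl at 4.30 TPM, Ctsk at 4.18 TPM, Spp1 at 3.40 TPM and Runx2 at 1.76 TPM. Postn led in both libraries. Bglap stood 3rd in replicate 2 and 8th in replicate 1, and Ibsp 9th in replicate 2 and 30th in replicate 1. At the low end Matn1, Calcr, Ucma and Matn3 lay between 0.03 and 0.10 TPM in replicate 2.

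**Figure D2:**
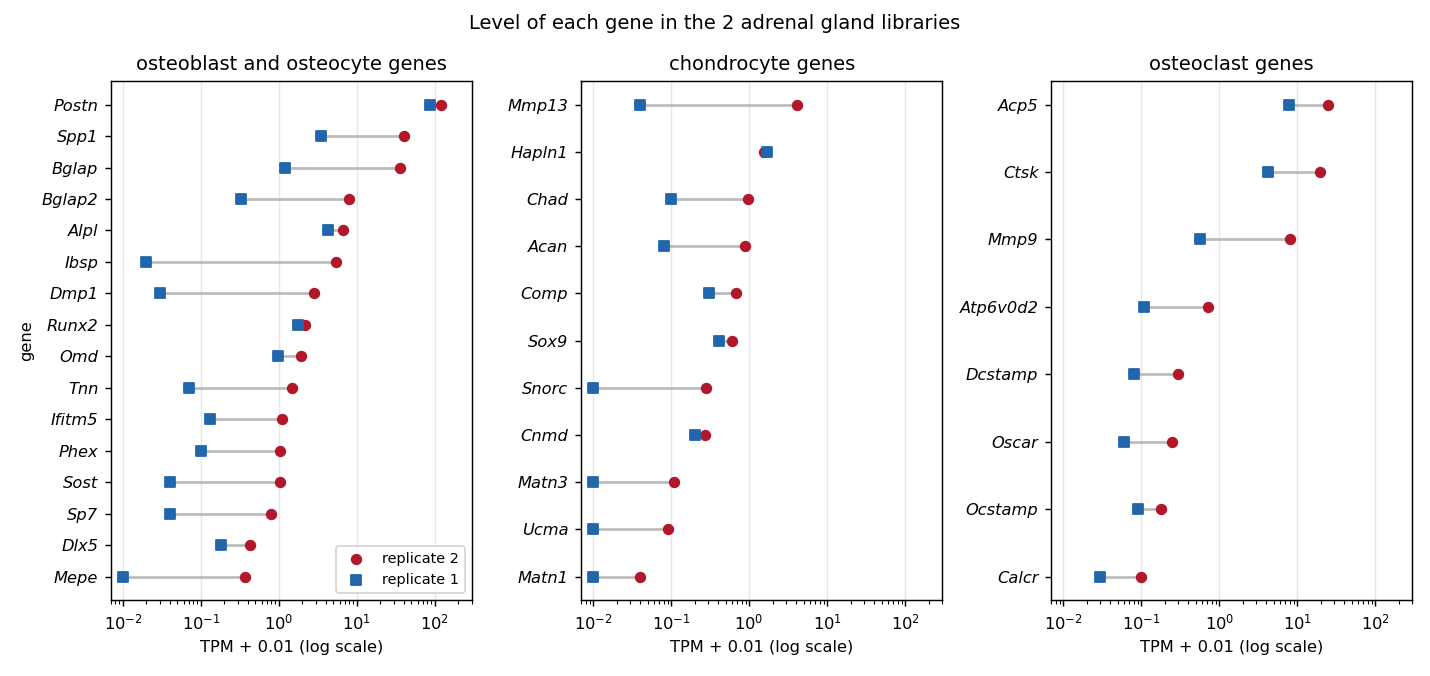
TPM plus 0.01, on a log axis, of each gene in replicate 2 (red circles) and replicate 1 (blue squares), in a panel per lineage; a grey line joins the libraries. Ibsp lies at 5.39 TPM in replicate 2, against 0.01 TPM in replicate 1, while both points of Hapln1 lie at 1.54 and 1.67 TPM.

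Of the 4 transcription factors that set up the skeletal lineages, Sp7 and Dlx5 were more than 2-fold higher in replicate 2. Runx2, required for osteoblast formation, had 309 counts in replicate 2 and 254 in replicate 1, and Sox9, required for cartilage formation, had 88 and 59 in that order. Both were near each other in the libraries, at 1.22-fold (1.03 to 1.44) for Runx2 and 1.49-fold (1.06 to 2.11) for Sox9. Dlx5, a homeobox factor of osteoblasts, had 20 counts in replicate 2 and 8 in replicate 1, for a ratio of 2.5 with an interval of 1.06 to 6.57. Sp7, also called osterix, which acts after Runx2 and is the more restricted to bone, had 81 counts in replicate 2 and 3 in replicate 1. Its ratio of 27 (8.92 to 134) was the only one among the 4 factors with an interval above 2-fold. Runx2, Sox9 and Dlx5 are known in other cells too.

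Runx2 has a pair of start regions, an upstream and a downstream one. The upstream region, with 7 annotated transcripts, had 48.4 expected counts in replicate 2 and 99.7 in replicate 1. The downstream region, with 6 transcripts, had 261 in replicate 2 and 154 in replicate 1. The second quantification put 99.4 counts on the upstream region in replicate 2 and 116 in replicate 1, and 261 on the downstream region in replicate 2 and 184 in replicate 1. In both quantifications the downstream region held more counts than the upstream one in each library, and only the downstream one held more in replicate 2. The upstream counts of replicate 2 differed about as much between the quantifications as between the libraries, so the division of reads between the regions is uncertain. Exons of Runx2 also overlap an antisense gene, Runx2os1, by up to 519 bases, with 7 counts in replicate 2 and 5 in replicate 1.

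RUNX factors bind DNA at the letters ACCACA, most strongly within AACCACA. These letters were searched on both strands (TGTGGT and TGTGGTT on the other strand) in windows from 250 bases before to 50 after the start of each gene, taken from RefSeq for GRCm38.p6, and every AACCACA is also an ACCACA. Of the 35 members 25 had a window, and with alternative starts they had 32. ACCACA occurred for 9 of the 25 members (36%) and for 18.9% of 27025 genes with a window; AACCACA occurred for 6 members (24%) and for 6.09% of genes. Counted by window, ACCACA occurred in 28.1% of the members' windows and 16.8% of all 32851 windows, and AACCACA in 18.8% of the members' windows and 5.27% of all windows. A match is a run of letters and not a measured binding site, and the members share lineages and were not drawn at random. The windows with ACCACA belonged to Bglap, Dmp1, Hapln1, Matn1, Mepe, Mmp13, Runx2, Spp1 and Ucma. The 250 bases before the start are given below for 4 genes with large ratios that hold the letters, for Ibsp, whose ratio was the largest of the members and whose window holds none, and for Hapln1, whose window holds them and whose libraries were nearly equal. Capitals mark ACCACA or its reverse complement.
Dmp1, chr5:104202367-104202616, plus strand: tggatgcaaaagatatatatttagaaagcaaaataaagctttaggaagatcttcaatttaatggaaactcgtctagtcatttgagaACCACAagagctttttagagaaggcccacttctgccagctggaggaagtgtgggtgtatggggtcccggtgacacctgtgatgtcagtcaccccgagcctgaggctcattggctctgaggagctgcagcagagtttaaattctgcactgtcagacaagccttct
Spp1, chr5:104434861-104435110, plus strand: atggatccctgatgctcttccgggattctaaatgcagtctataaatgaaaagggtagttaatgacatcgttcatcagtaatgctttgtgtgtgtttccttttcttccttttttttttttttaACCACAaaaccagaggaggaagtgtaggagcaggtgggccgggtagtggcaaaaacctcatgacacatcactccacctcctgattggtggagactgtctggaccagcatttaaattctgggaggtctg
Bglap, chr3:88384467-88384716, minus strand: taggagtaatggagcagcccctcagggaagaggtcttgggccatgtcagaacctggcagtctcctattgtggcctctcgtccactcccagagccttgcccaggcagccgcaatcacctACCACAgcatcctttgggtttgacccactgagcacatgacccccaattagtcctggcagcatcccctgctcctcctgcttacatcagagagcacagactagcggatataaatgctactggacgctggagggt
Mmp13, chr9:7272264-7272513, plus strand: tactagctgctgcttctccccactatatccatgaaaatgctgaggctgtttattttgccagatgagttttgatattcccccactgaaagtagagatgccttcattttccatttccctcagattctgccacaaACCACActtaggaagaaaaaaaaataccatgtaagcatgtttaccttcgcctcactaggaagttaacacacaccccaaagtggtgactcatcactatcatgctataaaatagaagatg
Ibsp, chr5:104299037-104299286, plus strand: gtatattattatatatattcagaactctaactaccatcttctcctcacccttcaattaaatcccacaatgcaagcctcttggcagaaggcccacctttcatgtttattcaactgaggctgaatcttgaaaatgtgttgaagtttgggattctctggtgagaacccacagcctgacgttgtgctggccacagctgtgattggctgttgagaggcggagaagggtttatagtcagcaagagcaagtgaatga
Hapln1, chr13:89540386-89540635, plus strand: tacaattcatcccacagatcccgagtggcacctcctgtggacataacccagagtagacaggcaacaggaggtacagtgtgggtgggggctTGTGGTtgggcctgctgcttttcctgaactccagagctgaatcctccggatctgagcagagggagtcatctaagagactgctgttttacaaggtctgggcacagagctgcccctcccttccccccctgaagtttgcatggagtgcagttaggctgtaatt
In these sequences the first capital lies 164 bases before the start in Dmp1, 128 in Spp1, 132 in Bglap, 118 in Mmp13 and 160 in Hapln1, where it is on the opposite strand. Bglap holds ACCACA without the preceding A, and the other 4 hold the longer AACCACA. Genes with the letters thus included Dmp1, at 141-fold between libraries (62-fold in the second quantification), and Hapln1, at 1.04-fold. The RefSeq start used for Hapln1 differs from that of the counted gene. Its window, chr13:89540386-89540635, lies downstream of position 89539796, where the gene and its main transcript Hapln1-201 start.

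Of the 6 genes of bone mineral, 5 were more than 2-fold higher in replicate 2. Ibsp, the bone sialoprotein that binds hydroxyapatite, had 394 counts in replicate 2 and 1 in replicate 1, or 5.39 and 0.01 TPM. The interval of its ratio ran from 70.4 to 15600, so the size of the gap is known only from below. Spp1, or osteopontin, had 1939 counts in replicate 2 and 159 in replicate 1, for a ratio of 12.2 (10.4 to 14.4). Spp1 is known in macrophages and other cells as well as in bone, and it had the most counts in replicate 1 of the mineral proteins other than Alpl. Alpl, the alkaline phosphatase that frees phosphate for mineral and is found in many tissues, had 452 counts in replicate 2 and 268 in replicate 1, for a ratio of 1.69 (1.45 to 1.97). Ifitm5, a small membrane protein of mineralising osteoblasts, had 27 counts in replicate 2 and 3 in replicate 1, for a ratio of 9.01 (2.77 to 46.4). The 6 genes of this role summed to 3357 counts in replicate 2 and 450 in replicate 1.

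Bglap and Bglap2 encode osteocalcin, the vitamin K-dependent protein of bone matrix, and are near-identical copies, so reads can be divided wrongly between them. Bglap had 436 counts in replicate 2 and 15 in replicate 1, and Bglap2 had 110 in replicate 2 and 4 in replicate 1. The deposited uncertainty of this division was an SD of 13.39 counts for Bglap in replicate 2 and 2.28 in replicate 1. The neighbouring relative Bglap3, not among the members, had 139 counts in replicate 2 and 3 in replicate 1. Summed over the 3 genes there were 685 counts in replicate 2 and 22 in replicate 1, for a ratio of 31.2 (20.4 to 50.1). The second quantification gave 349 counts in replicate 2 and 9 in replicate 1 for the same sum, for a ratio of 38.6 (20.1 to 85.2). The intervals of the ratio overlapped between the quantifications, while the second assigned fewer reads to osteocalcin in both libraries.

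Osteocyte genes had few counts in replicate 1. Dmp1, an acidic matrix protein of osteocytes, had 281 counts in replicate 2 and 2 in replicate 1, for a ratio of 141 (38.6 to 1170). The second quantification had 311 and 5 counts in that order, for a ratio of 62 (26.3 to 192). Phex, a membrane endopeptidase of osteocytes and osteoblasts whose loss causes phosphate wasting, had 158 counts in replicate 2 and 14 in replicate 1, for a ratio of 11.3 (6.54 to 21.1), against 5.47 (3.8 to 8.08) in the second quantification. Sost, which encodes sclerostin, an inhibitor of Wnt signalling, had 74 counts in replicate 2 and 2 in replicate 1, for a ratio of 37 (9.9 to 311). Mepe, a phosphoglycoprotein of bone matrix, had 21 counts in replicate 2 and 0 in replicate 1. Its ratio was 7.01 with the 0 read as 3 counts, and its interval began at 5.21 with no upper end. The 4 genes summed to 534 counts in replicate 2 and 18 in replicate 1, and 14 of those 18 were of Phex. Of the pathway beyond the members, Fgf23, the phosphate hormone of osteocytes, had no count in either library, where 3 counts per library is the limit a count of 0 allows.

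Genes of the periosteum, the sheath of bone, were divided. Tnn, a tenascin of periosteum and bone, had 314 counts in replicate 2 and 10 in replicate 1, for a ratio of 31.4 (16.9 to 66.2). Omd, osteomodulin, a proteoglycan of mineralised matrix, had 115 counts in replicate 2 and 64 in replicate 1, for a ratio of 1.8 (1.31 to 2.48). Postn, periostin, which fibroblasts of many organs also secrete, had 12625 counts in replicate 2 and 8991 in replicate 1, for a ratio of 1.41 (1.37 to 1.44). Postn held 52.5% of the summed TPM of the 16 osteoblast and osteocyte genes in replicate 2 and 87.3% in replicate 1. The sum over the lineage was 17355 counts in replicate 2 and 9798 in replicate 1, for a ratio of 1.77 (1.73 to 1.82), and without Postn 5.87 (5.44 to 6.33). In bulk tissue fewer cells of a type and less RNA per cell cannot be told apart, which holds for every difference given here.

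Genes of cartilage matrix were few in counts and also unequal. Acan, aggrecan, the main proteoglycan of cartilage, had 211 counts in replicate 2 and 18 in replicate 1, for a ratio of 11.7 (7.25 to 20.2). Chad, chondroadherin, a cartilage protein that cells attach to, had 56 counts in replicate 2 and 5 in replicate 1, for a ratio of 11.2 (4.53 to 35.9). Comp, the cartilage oligomeric matrix protein, also made by tendon, had 58 counts in replicate 2 and 14 in replicate 1, for a ratio of 4.15 (2.28 to 8.05). Its TPM of 0.67 in replicate 2 and 0.30 in replicate 1 stood closer together than its counts. The transcript Comp-203 took 53.3% of the level in replicate 1, while Comp-201 took 100% in replicate 2. The 53.3% rests on 2.28 of the 14 counts, and the second quantification assigned 100% to Comp-201 in both libraries. Matn3, a matrilin of the growth plate, had 11 counts in replicate 2 and 0 in replicate 1. Its ratio was 3.67 with the 0 read as 3 counts, and its interval began at 2.51 with no upper end. The remaining low genes were Snorc, a small proteoglycan of chondrocytes, with 4 and 0 counts, Matn1, another matrilin, with 2 and 0, and Ucma, a Gla protein of the growth plate, with 2 and 0, each in replicate 2 and then replicate 1.

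Hapln1 differed least of the cartilage genes with a ratio. Hapln1, the link protein that holds aggrecan to hyaluronan, had 322 counts in replicate 2 and 311 in replicate 1, for a ratio of 1.04 with an interval of 0.884 to 1.22. Scaled to library totals its ratio was 0.982, and scaled to spike-ins 0.997. In TPM it was lower in replicate 2, at 1.54 TPM against 1.67 TPM in replicate 1. It was the chondrocyte gene with the highest level in replicate 1, with 60.7% of the lineage's summed TPM there, and it is known in other tissues. Cnmd, chondromodulin, had 12 counts in replicate 2 and 9 in replicate 1, and its interval of 0.516 to 3.59 leaves the direction undecided at this depth. Mmp13, the collagenase of enlarged chondrocytes and osteoblasts, had 393 counts in replicate 2 and 3 in replicate 1, for a ratio of 131 (44.5 to 639). The 11 chondrocyte genes, Mmp13 among them, summed to 1159 counts in replicate 2 and 419 in replicate 1, for a ratio of 2.77 (2.47 to 3.1), and to 1.84 (1.63 to 2.08) without Mmp13. Their median log2 ratio was 2.32, and 0.58 with counts of 0 in replicate 1 read as 3 counts and the genes at or under 3 counts in both libraries read as equal.

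**Figure D3:**
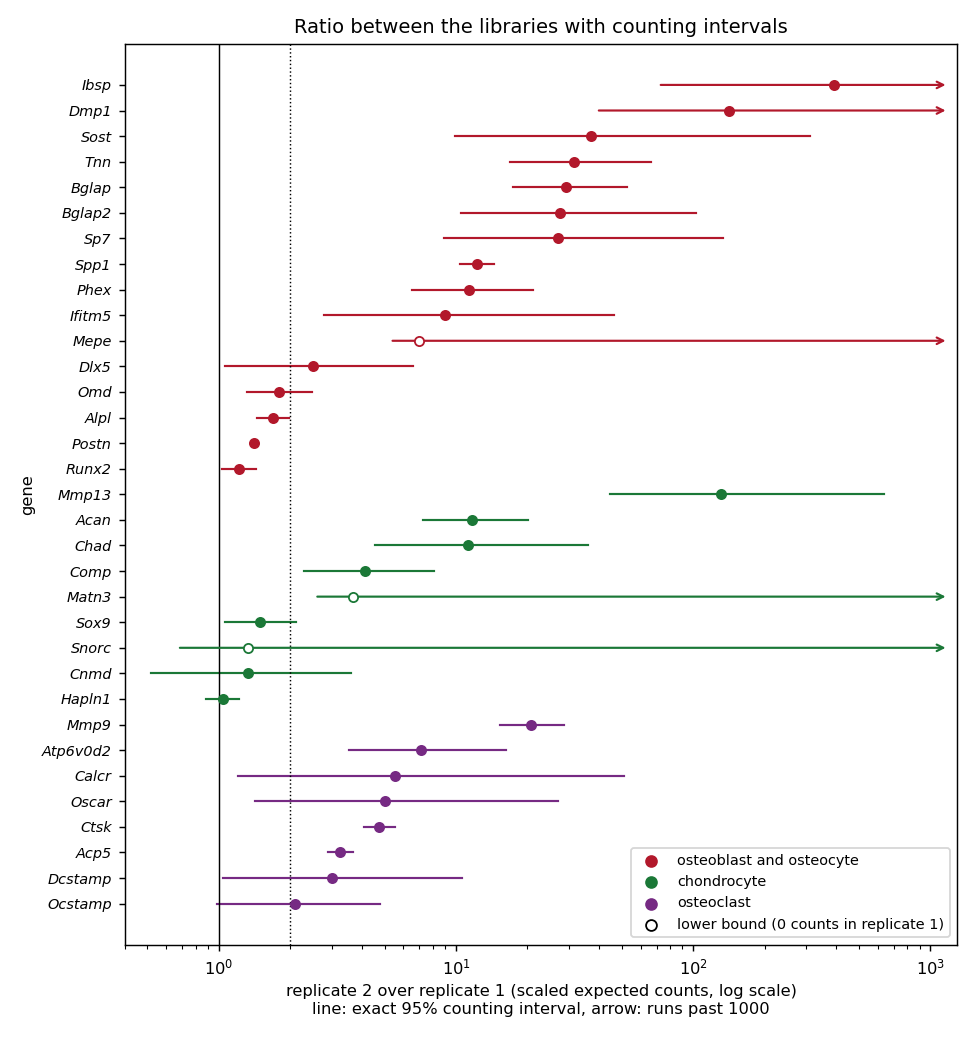
Ratio of replicate 2 over replicate 1, on a log axis, for the 33 members with more than 3 counts in a library, by lineage. Lines are exact 95% counting intervals, and arrows run past 1000. Open points, labelled as lower bounds, take 0 counts in replicate 1 as 3 counts. The solid line marks equality and the dotted line 2-fold: Hapln1, Cnmd, Snorc and Ocstamp have intervals that reach below 1.

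The enzymes of osteoclast resorption had sizable counts in both libraries. Acp5, the tartrate-resistant acid phosphatase of osteoclasts, had 1144 counts in replicate 2 and 352 in replicate 1, for a ratio of 3.25 (2.88 to 3.68). Ctsk, cathepsin K, which digests collagen in resorption pits, had 1026 counts in replicate 2 and 216 in replicate 1, for a ratio of 4.75 (4.1 to 5.53). Mmp9, a gelatinase of osteoclasts and of neutrophils, had 927 counts in replicate 2 and 45 in replicate 1, for a ratio of 20.6 (15.3 to 28.5). Its interval did not overlap those of Acp5 and Ctsk. Atp6v0d2, a proton pump subunit of osteoclasts that macrophages also have, had 64 counts in replicate 2 and 9 in replicate 1, for a ratio of 7.12 (3.52 to 16.3).

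Receptors and fusion proteins of osteoclasts were near the limit of detection. Oscar, an activating receptor, had 15 counts in replicate 2 and 3 in replicate 1, and Calcr, the calcitonin receptor, had 11 and 2 in that order. Dcstamp, a membrane protein needed for cell fusion, had 15 counts in replicate 2 and 5 in replicate 1, and Ocstamp, another such protein, had 23 and 11 in that order. All 4 were higher in replicate 2, with ratios of 5 (1.42 to 27) for Oscar, 5.51 (1.2 to 51.1) for Calcr, 3 (1.04 to 10.6) for Dcstamp and 2.09 (0.98 to 4.76) for Ocstamp. In the second quantification Oscar had a ratio of 2.85 (1.16 to 7.97) and Ocstamp one of 1.27 (0.7 to 2.33), and scaled to library totals Ocstamp was at 1.98, so its call past 2-fold was lost in both. No interval among these 4 lay wholly above 2-fold. The 8 osteoclast genes summed to 3225 counts in replicate 2 and 643 in replicate 1, for a ratio of 5.02 (4.61 to 5.47), and their median log2 ratio was 2.18.

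Members known in other cells differed less in their sums than those that are not. From textbook knowledge 16 members are also known in other cells, such as Postn, Alpl, Hapln1, Acp5 and Spp1, and they summed to 19189 counts in replicate 2 and 10757 in replicate 1, for a ratio of 1.79 (1.74 to 1.83). Postn held most of these counts, and without it, chosen after the data were seen, the ratio was 3.72 (3.53 to 3.92). The other 19, such as Ibsp, Dmp1, Bglap, Sp7, Acan and Mmp13, summed to 2551 counts in replicate 2 and 103 in replicate 1, for a ratio of 24.8 (20.4 to 30.5). The median log2 ratio was 1.86 over the 16 genes and 3.52 over the 19. Since the members were chosen by these ratios, nothing is read from the contrast between the 16 and the 19. Among osteoclast genes, the 6 sorted as known in other cells had a ratio of 5.09 (4.67 to 5.55). Dcstamp and Ocstamp, sorted as not known there, had 2.38 (1.29 to 4.57) together, on 38 counts in replicate 2 and 16 in replicate 1. These counts are few and the sorting of Dcstamp is uncertain, so nothing is read from that order.

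The members lie on 16 chromosomes. Dmp1, Ibsp, Mepe and Spp1 lie together on chromosome 5 within 238 kb (coordinates of mm10), in the cluster of secreted mineral-binding proteins called SIBLING: Dmp1 at chr5:104202613-104214102, Ibsp at chr5:104299171-104311469, Mepe at chr5:104325329-104338611 and Spp1 at chr5:104435118-104441050, all on the plus strand. Of the other protein-coding genes within 100 kb, the flanking Sparcl1 had 4580 counts in replicate 2 and 3919 in replicate 1, Pkd2 had 1887 and 1737, and BC005561 had 554 and 597, each in that order. Their ratios lay between 0.929 and 1.17. Dspp, the cluster's gene of tooth dentin, had no count in either library. The 4 members were chosen by their ratios and the neighbours were not, so nothing is read from the contrast between them.

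Bglap (chr3:88383501-88384464) and Bglap2 (chr3:88377736-88378699), both on the minus strand, had 12 other protein-coding genes within 100 kb, and only Bglap3 among them was more than 2-fold apart. Pmf1, the next gene beyond Bglap, had 659 counts in replicate 2 and 689 in replicate 1. Over all members, the nearest protein-coding genes on both sides were taken among non-members with a mean of at least 10 counts. They numbered 62, with a median log2 ratio of 0.02. Of these, 5 (8.06%) were more than 2-fold higher in replicate 2, close to the 7.12% of all protein-coding genes, and none was more than 2-fold lower. They were Bglap3, Olfm4, Mmp8, Dpys and Slc13a3.

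**Figure D4:**
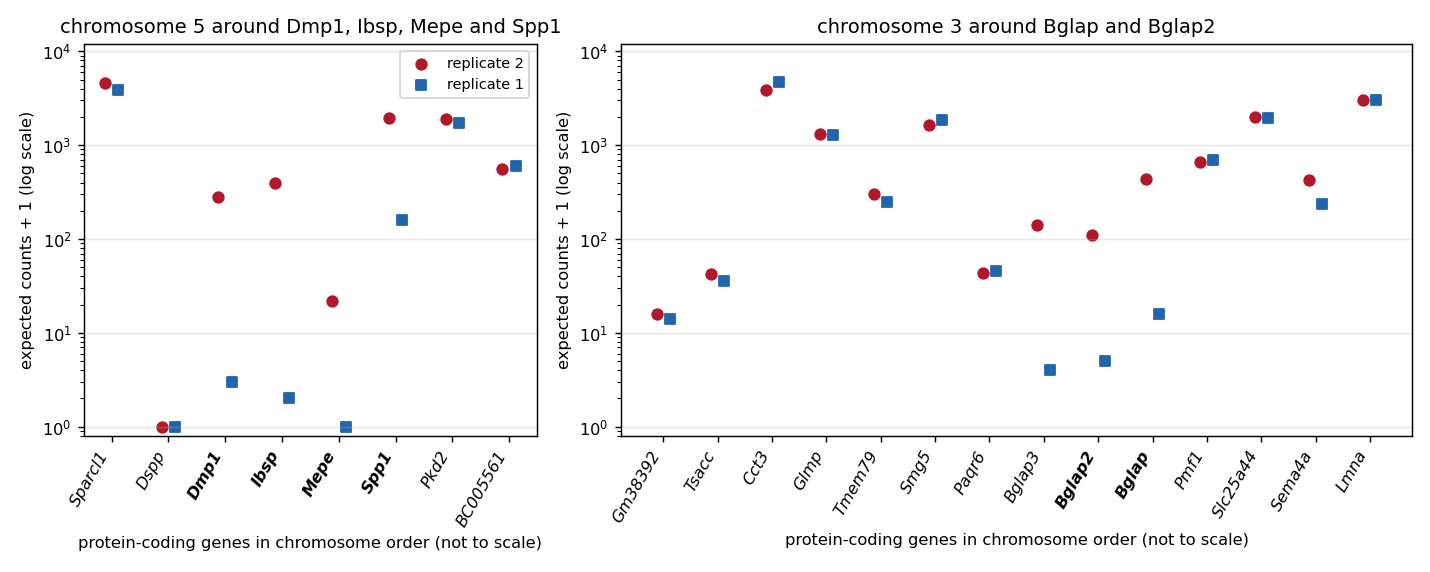
Expected counts plus 1, on a log axis, of the protein-coding genes around the SIBLING cluster (left) and around osteocalcin (right) in chromosome order, in replicate 2 (red circles) and replicate 1 (blue squares); members are in bold. The red points of Dmp1, Ibsp, Mepe, Spp1, Bglap, Bglap2 and Bglap3 stand far above the blue ones, and the pairs of most flanking genes nearly touch.

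Transcript use was read from the members with more than 1 annotated transcript. There were 22 such members, and 17 of them had more than 3 counts in both libraries. The main transcript was the same in both libraries for 13 of the 17 in the first quantification and for 11 in the second, and for 8 it was the same in both libraries and both quantifications. For Postn it was Postn-204, with 50.3% of the gene's TPM in replicate 2 and 46.5% in replicate 1. For Alpl it was Alpl-201, with 71.1% in replicate 2 and 64.9% in replicate 1. For Tnn both quantifications gave Tnn-201 in replicate 2 and Tnn-202 in replicate 1, but replicate 1 had only 10 counts. For Spp1 the quantifications named different main transcripts, Spp1-201 and Spp1-204, each in both libraries, so its isoform is uncertain.

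Of genes in the same pathways, the collagens were the most uneven. Of 12 collagens of bone and cartilage, 10 passed 2-fold with the higher count in replicate 2, and the median log2 ratio of the list was 1.55. Col2a1, the collagen of cartilage, had 1015 counts in replicate 2 and 18 in replicate 1, for a ratio of 56.4 (35.5 to 95.6). Col11a1 and Col11a2, of the same fibrils, had ratios of 9.28 (7.71 to 11.3) and 8.22 (6.8 to 10.0). Col1a1 and Col1a2, the chains of collagen I in bone and all connective tissue, had ratios of 2.53 (2.51 to 2.56) and 2.31 (2.28 to 2.34). Col1a1 had 112063 counts in replicate 2 and 44267 in replicate 1. Col22a1, a collagen of tissue junctions, had a ratio of 2.28 (1.89 to 2.78).

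Lists of regulators are set beside the 6.77% of all genes with as many counts that were more than 2-fold higher. Of 36 genes of osteoblast signalling, 33 had a mean of at least 10 counts and 4 (12.1%) were more than 2-fold higher in replicate 2. Among them were Cthrc1, a secreted matrix protein, with 168 counts in replicate 2 and 70 in replicate 1, Dkk1, a Wnt inhibitor, with 19 and 4, and Dlx3, a homeobox factor, with 19 and 1, each in that order. The list's most abundant genes, Sparc, or osteonectin, and Phospho1, a phosphatase of mineralisation, had ratios of 1.16 (1.14 to 1.17) and 0.83 (0.792 to 0.871). Of 24 growth plate genes, 20 had that many counts and 2 (10%) were more than 2-fold higher: Runx3, a RUNX factor, with 76 counts in replicate 2 and 32 in replicate 1, and Cytl1, a cytokine-like protein of cartilage, with 36 and 13 in that order. Its most abundant genes, Frzb and Matn2, had ratios of 0.947 (0.883 to 1.01) and 1.12 (1.05 to 1.19).

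Of 23 genes of osteoclast signalling and acid secretion, 1 (4.35%) was more than 2-fold higher in replicate 2. It was Slc9b2, a sodium-proton exchanger of osteoclasts, with 70 counts in replicate 2 and 20 in replicate 1. Cd9 and Itgav, the most abundant of the list, had ratios of 0.929 (0.868 to 0.994) and 0.968 (0.922 to 1.02). Of 16 small leucine-rich and tendon matrix genes, 6 (37.5%) were more than 2-fold higher, beside the 6.77% of all genes. They were Tnc with a ratio of 2.6, Cilp with 2.68, Thbs4 with 3.23, Cilp2 with 4.16, Tnmd with 4.46 and Kera with 2.22. The interval of Kera ran from 0.968 to 5.55. Dcn and Bgn, the most abundant genes of this list, had ratios of 1.3 (1.25 to 1.35) and 1.59 (1.53 to 1.65). No gene of these 5 lists with a mean of at least 10 counts was more than 2-fold lower in replicate 2. The median log2 ratios were 0.10 for osteoblast signalling, 0.37 for the growth plate, 0.13 for osteoclast signalling and 0.74 for the leucine-rich and tendon list.

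Markers of muscle and liver were also higher in replicate 2. Skeletal muscle genes summed to 978 TPM in replicate 2 and 363 TPM in replicate 1, and all 12 were more than 2-fold higher in replicate 2. Acta1, skeletal muscle actin, stood at 305 TPM in replicate 2, against 107 TPM in replicate 1, and Mylpf, a myosin light chain, at 225 and 86.8 TPM in that order. Hepatocyte genes summed to 12560 TPM in replicate 2 and 3988 TPM in replicate 1, with 8 of 10 more than 2-fold higher. Alb, serum albumin, stood at 6173 TPM in replicate 2, against 2046 TPM in replicate 1, and Ahsg, fetuin-A, at 2421 and 720 TPM in that order. Pericyte and smooth muscle genes summed to 202 TPM in replicate 2 and 128 TPM in replicate 1, with 5 of 10 more than 2-fold higher. Rgs5 had a ratio of 1.26 (1.21 to 1.3) and Acta2, smooth muscle actin, one of 3.09 (2.86 to 3.34). The part of such tissue in the differences of the bone genes was not tested.

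Cells of bone marrow and blood stood beside the osteoclast genes as follows. Neutrophil and precursor genes summed to 111 TPM in replicate 2 and 37.2 TPM in replicate 1, and 10 of 12 were more than 2-fold higher, all 10 of those with a mean of at least 10 counts. S100a9 had 637 counts in replicate 2 and 194 in replicate 1, and S100a8 had 452 and 149, ratios of 3.29 (2.79 to 3.88) and 3.04 (2.52 to 3.68). Over the 10 genes the ratios ran between 2.15 (1.51 to 3.09) for Camp and 12.5 (3.12 to 109) for Elane. Elane had only 25 counts in replicate 2 and 2 in replicate 1. Macrophage genes summed to 116 TPM in replicate 2 and 68.6 TPM in replicate 1, with 2 of 10 more than 2-fold higher, and Lyz2 and C1qb had ratios of 1.89 (1.75 to 2.04) and 1.65 (1.43 to 1.9). B cell genes summed to 38.3 TPM in replicate 2 and 23.0 TPM in replicate 1, with 5 more than 2-fold higher and 2 more than 2-fold lower. Early B cell genes went both ways: Igll1 had 16 counts in replicate 2 and 0 in replicate 1, and the 2 lower ones were Rag1, with 48 and 193 counts, and Dntt, with 5 and 32, in that order. Ighm had a ratio of 2.3 (2.04 to 2.6) and Ebf1 one of 1.04 (0.97 to 1.11). Their part in the osteoclast gene ratios was not tested.

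Other lists were closer between libraries. Of all 14 cell type lists, 10 had a higher summed TPM in replicate 2, and 8 did in the second quantification. The direction of some lists thus depends on the quantification. Erythroid genes summed to 3681 TPM in replicate 2 and 3507 TPM in replicate 1, led by Hba-a1 and Hbb-bs, and endothelial genes to 357 and 356 TPM in that order, led by Egfl7 and Cdh5. Tenocyte and fibroblast genes, led by Dcn and Col14a1, summed to 210 TPM in replicate 2 and 171 TPM in replicate 1, and Schwann cell genes, led by Pmp22 and S100b, to 82.8 and 72.5 TPM in that order. Brown fat genes, led by Fabp4 and Ucp1, summed to 5261 TPM in replicate 2 and 5666 TPM in replicate 1. Kidney genes summed to 0.78 TPM in replicate 2 and 1.13 TPM in replicate 1, led by Aqp2 and Lrp2, and Umod, Slc12a1, Slc34a1 and Kap had no count in either library. Of the adrenal lists, Star and Hsd3b1 led the cortex, with ratios of 0.923 (0.916 to 0.93) and 0.841 (0.833 to 0.848), and Chga and Chgb the medulla, with 0.806 (0.792 to 0.819) and 0.809 (0.797 to 0.821).

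**Figure D5:**
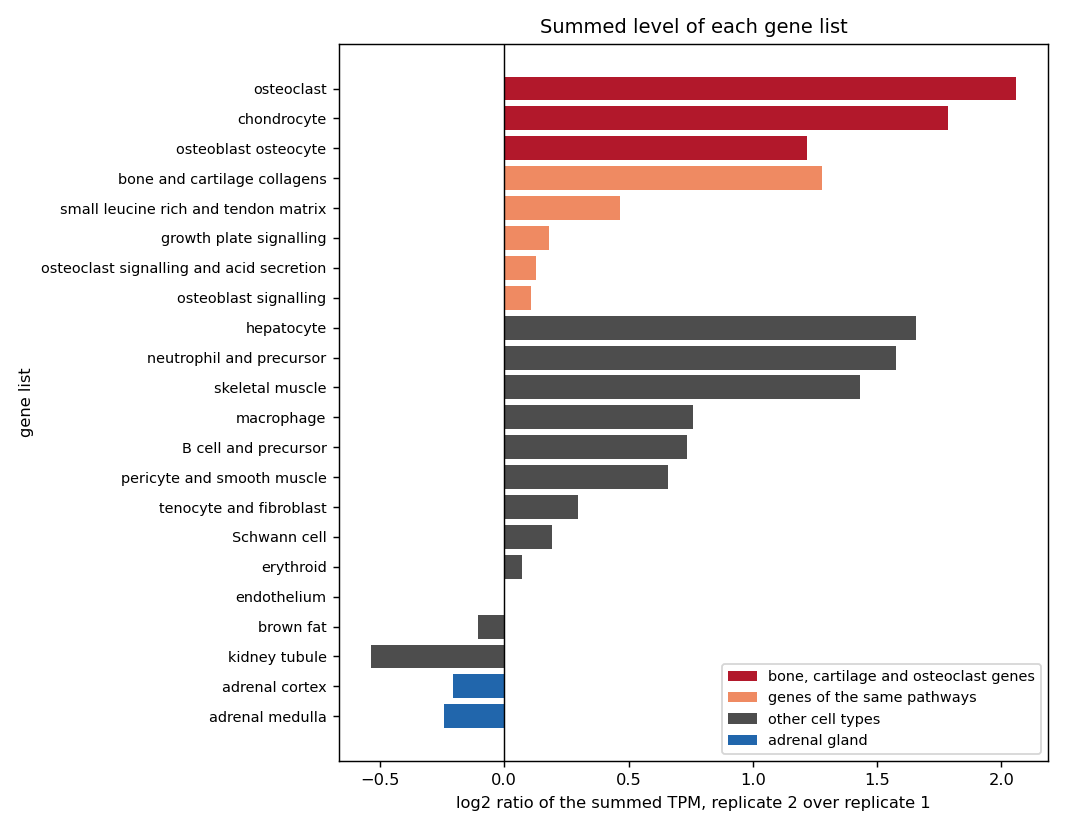
Log2 ratio of the summed TPM in replicate 2 over replicate 1 for each gene list, grouped as members (red), genes of the same pathways (orange), other cell types (grey) and the adrenal gland (blue). The osteoclast bar stands for 53.8 TPM in replicate 2 against 12.9 TPM in replicate 1, a ratio of 4.17. The chondrocyte bar stands for a ratio of 3.45 and the osteoblast and osteocyte bar for 2.33. The hepatocyte, neutrophil and muscle bars stand for 3.15, 2.98 and 2.69. The adrenal cortex and medulla lie below 0.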

How the data were processed

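Per the labels, total RNA of adrenal gland was made into directional libraries. Per the file headers, the authors deposited expected counts per gene (mm10, GENCODE M21), not normalised, with TPM and the SD of each count's assignment, and a second transcript table with estimated counts and TPM. Which tools quantified the reads, and with which strand setting, is not given in the sources used here.

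Expected counts of genes were scaled by TMM (edgeR 4.0.16) after rounding. The scale of replicate 2 over replicate 1 was 0.999066. Folds are ratios of scaled counts with exact Clopper-Pearson 95% intervals, which cover counting error only, since the reads carry no molecular identifiers. A count of 0 was read as 3 counts per library, and no fold was given where both libraries had 3 or fewer. Medians used log2 ratios with a prior of 0.5 counts. The interval code was run on counts simulated with counting error alone. Such a run cannot show coverage under errors of read assignment or spread between libraries.

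The members and all lists were chosen with earlier results of these data known. The text names all members, in each pathway list up to 6 genes past 2-fold by mean count plus the 2 with the highest TPM, and in each cell type list the 2 with the highest TPM; Bglap3, the flanking genes, Fgf23, Igll1, Rag1, Dntt, Camp, Elane, Kap, Umod, Slc12a1 and Slc34a1 are named beside them, as neighbours, genes at 0 or genes chosen after their values were seen. The text leaves out some genes that the rule takes. Exons of 4 members overlap another gene (Acp5, Ifitm5, Runx2 and Spp1), and 33 members had an assignment SD under 1 count. Alternatives were DESeq2 (1.42.0) size factors, library and spike-in totals, the second table, other thresholds and priors. Software was Python 3.11.15 (scipy 1.17.1, pandas 2.3.3, numpy 2.4.6), R 4.3.3 and, for figures, matplotlib 3.10.9.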

Additional observations from a re-analysis of the deposited data

How the results depend on the processing

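Except for Hapln1, at 0.982 when scaled to library totals and 0.997 when scaled to spike-ins, every member ratio kept its direction under scaling by DESeq2 size factors, library total or spike-in total and in the second table, where each gave a value. The osteoclast genes past 2-fold numbered 5 by library total. Outside its counting interval lay Postn at 1.33 when scaled to library totals and 1.35 when scaled to spike-ins, and Phex at 5.47 in the second table, with 35 counts in replicate 1 there. The number of members with an interval above 2-fold stayed within 1.5 times under these scalings in each lineage.

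Under the minimum mean of 10 counts, 12 osteoblast and osteocyte genes, 4 chondrocyte genes and 6 osteoclast genes were past 2-fold. When the minimum was raised to 100, these numbers were 5, 2 and 3 in that order. Fewer members then entered the count, and of those left only Runx2, Alpl, Postn and Hapln1 were not past 2-fold. The share of all genes past 2-fold under that minimum is not given here. Of the pathway lists, 6 collagens, 2 osteoblast signalling genes and 3 leucine-rich and tendon genes were then past 2-fold. The growth plate and osteoclast signalling lists had 0. The median log2 ratio of osteoblast and osteocyte genes was 4.07, against 3.55 with counts of 0 read as 3 and 3.56 with a prior of 2 counts. That of chondrocyte genes was 2.80 in the second table, 3.54 with a prior below 0.5, 1.59 with a prior of 2 and 2.01 among members whose mean reached 10 counts. That of osteoclast genes was 1.96 in the second table, 1.73 with a prior of 2 and 1.97 among members whose mean reached 10 counts.

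The ratio of summed counts of the members known in other cells was 3.72 without Postn, an alternative chosen after seeing the data. The ratio of summed counts of osteoblast and osteocyte genes was 1.68 by library total, 1.71 by spike-in total, 5.87 without Postn and 35.1 without members known in other cells. That of chondrocyte genes was 7.76 without Hapln1, 19.8 without members known in other cells and 1.84 with Mmp13 moved to the osteoclast genes. That of osteoclast genes was 7.16 without Acp5, 2.38 without members known in other cells and 5.61 with Mmp13. The mean summed TPM of the libraries, 163 ± 92.2 for osteoblast and osteocyte genes, 6.12 ± 4.76 for chondrocyte genes and 33.4 ± 28.9 for osteoclast genes (SD, n = 2), was 485, 18.1 and 98.5 in that order when rescaled over nuclear protein-coding genes, which held 34.3% of TPM in replicate 2 and 32.4% in replicate 1.

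No paired analysis was possible because there is a single group. A pair of libraries without repeats gives no estimate of the spread between animals or between preparations, and ratios of genes with under 10 counts are poorly determined.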
